A study of Homo sapiens with 6 samples.

Results

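The E2F transcription factors and the pocket proteins that bind them were examined in EJ cells whose STIL expression had been knocked down. The family was taken as the genes E2F1 to E2F8, RB1 and RBL1, chosen by gene symbol, and all 10 were found among the 15953 genes of the expression tables. RNA-seq was run on total RNA of EJ cells, a cell line from a human bladder carcinoma, with 3 libraries in each of 2 groups. The sample labels name the groups shNC and shSTIL. In the study's methods shNC stands for a negative control lentivirus. There, shSTIL stands for a lentivirus that expresses a short hairpin RNA against STIL, a centriole duplication gene. The methods describe stable cells, while the data and the series design text use the names siNC and siSTIL. Which of these holds cannot be told here, and the labels were followed. The groups differed by no other labelled treatment, and the series was made to compare gene expression with and without STIL. The sources used here give neither the number of hairpins nor whether the lines were clones or pools, and they do not say that the 3 libraries of a group came from separate cultures, so the p-values measure the spread between these libraries, which may be technical.

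E2F proteins bind DNA together with a dimer partner of the DP family, and control the genes a cell needs to enter and pass through S phase. E2F1, E2F2 and E2F3 are known as activators, E2F4 and E2F5 act mainly as repressors while bound to a pocket protein, E2F6 represses without a pocket protein, and the atypical E2F7 and E2F8 repress without a dimer partner. The pocket proteins RB1, RBL1 (p107) and RBL2 (p130) hold E2F proteins until cyclin-dependent kinases phosphorylate them, and RB1 is a tumour suppressor that is often lost in bladder cancer.

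The libraries held 16214772 to 16431243 reads in shNC cells and 16734469 to 16901634 in shSTIL cells. Values are log2 CPM (log2 of the reads of a gene relative to the size of its library), and a DEG had a limma adjusted p under 0.01 over all genes. STIL itself was at 5.98, 6.10 and 6.01 in shNC cells and at 4.05, 4.06 and 4.01 in shSTIL cells, so that 25.2% of the control level was left. DEGs made up 47.1% of all genes, 23.5% higher and 23.6% lower in shSTIL cells, and for 60.3% of genes every value of 1 group lay above every value of the other. Of 9 epithelial and urothelial markers 8 had a row, and their summed level was 1072 to 1131 CPM in shNC cells and 968 to 999 CPM in shSTIL cells, most of it KRT8, KRT18 and KRT7. EPCAM, CDH1, GATA3, UPK2 and KRT5 had at most 21 reads in any library, so markers that many bladder epithelial cells carry were near 0 in both groups. Of 8 markers of immune, endothelial and fibroblast cells 4 had a row, with a sum of 13.7 to 16.02 CPM in shNC cells and 14.1 to 16.6 CPM in shSTIL cells, most of it CD68. Their part in the results below was not tested.

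Several E2F genes are known targets of E2F proteins, so the sequence around their starts is shown first. The windows are those of RefSeq on GRCh38.p14, from 250 bases before to 50 bases after the annotated start, and 8 of the 10 members had one. E2F5 and E2F8 had none, and the window listed for RB1 lies 172724 bases from the start of the gene, so it is not shown. Capitals mark each match to 1 of 4 words of the E2F site, TTTCCCGC, TTTCGCGC, TTTGCCGC and TTTGGCGC, read on either strand. The windows shown are the 4 that hold a match, followed by that of E2F7, which holds none. They lie at chr20:33686336-33686635 (minus strand, E2F1), chr1:23531184-23531483 (minus strand, E2F2), chr6:20401629-20401928 (plus strand, E2F3), chr20:37095948-37096247 (minus strand, RBL1) and chr12:77065520-77065819 (minus strand, E2F7).
E2F1: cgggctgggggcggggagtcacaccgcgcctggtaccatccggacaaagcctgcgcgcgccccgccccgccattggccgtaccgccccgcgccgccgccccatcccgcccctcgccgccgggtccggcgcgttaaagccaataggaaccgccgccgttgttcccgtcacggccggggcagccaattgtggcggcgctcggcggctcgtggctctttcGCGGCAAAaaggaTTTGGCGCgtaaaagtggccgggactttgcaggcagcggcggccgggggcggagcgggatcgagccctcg
E2F2: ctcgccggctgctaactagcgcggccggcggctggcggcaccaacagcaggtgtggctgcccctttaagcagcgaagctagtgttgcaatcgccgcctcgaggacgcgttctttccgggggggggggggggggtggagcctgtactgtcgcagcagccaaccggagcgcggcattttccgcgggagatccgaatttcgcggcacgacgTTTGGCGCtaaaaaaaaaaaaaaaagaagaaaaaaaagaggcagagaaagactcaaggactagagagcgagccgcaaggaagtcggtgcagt
E2F3: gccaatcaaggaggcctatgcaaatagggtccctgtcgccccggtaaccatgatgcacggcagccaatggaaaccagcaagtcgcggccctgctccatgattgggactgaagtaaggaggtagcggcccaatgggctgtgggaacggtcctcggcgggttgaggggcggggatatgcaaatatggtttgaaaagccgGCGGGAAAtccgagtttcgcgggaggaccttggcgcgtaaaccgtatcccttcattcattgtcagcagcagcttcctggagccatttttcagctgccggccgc
RBL1: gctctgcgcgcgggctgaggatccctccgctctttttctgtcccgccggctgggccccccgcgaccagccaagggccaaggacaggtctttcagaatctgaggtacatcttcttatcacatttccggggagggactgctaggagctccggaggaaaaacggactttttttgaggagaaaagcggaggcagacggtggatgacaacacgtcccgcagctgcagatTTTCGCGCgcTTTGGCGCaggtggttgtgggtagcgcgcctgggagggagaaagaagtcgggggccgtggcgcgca
E2F7: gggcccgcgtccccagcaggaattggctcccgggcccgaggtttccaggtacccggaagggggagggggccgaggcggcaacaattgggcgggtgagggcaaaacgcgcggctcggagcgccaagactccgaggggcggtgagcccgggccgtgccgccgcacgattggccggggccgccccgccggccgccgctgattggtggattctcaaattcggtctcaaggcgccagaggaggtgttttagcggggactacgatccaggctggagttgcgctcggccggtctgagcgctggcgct

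In E2F1 the word TTTGCCGC lay on the opposite strand from 33 to 26 bases before the start, and TTTGGCGC on the same strand from 20 to 13 bases before it. E2F2 held TTTGGCGC from 42 to 35 bases before its start. E2F3 held TTTCCCGC on the opposite strand from 53 to 46 bases before its start, and a second RefSeq start of E2F3 had no match. RBL1 held TTTCGCGC and TTTGGCGC on the same strand, from 26 to 19 and from 16 to 9 bases before its start. No match was found in the windows of E2F4, E2F6 and E2F7. The 6 matches of E2F1, E2F2, E2F3 and RBL1 thus lay within 53 bases before a start. The word CCAAT, the core of the site of NF-Y, was found 3 times in E2F1, 4 times in E2F3 and 4 times in E2F7, and overlapped no E2F word. An E2F word was present in 3.31% of the 35116 windows of all genes and CCAAT in 34.6%. Among windows of genes in the tables, an E2F word was present in 6.54% for DEGs lower in shSTIL cells, 4.16% for DEGs higher and 3.61% for the remaining genes, and these shares are a description without a test.

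**Figure D1:**
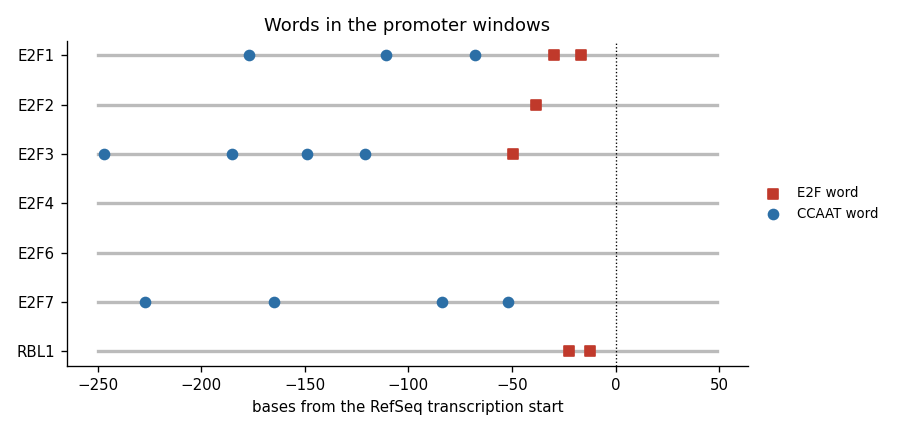
Position of each match to an E2F word (red squares) and to CCAAT (blue circles) in the RefSeq window of 7 members, in bases from the transcription start (dotted line), for the first window of E2F3 and without E2F5, E2F8 and RB1. The E2F words of E2F1, E2F2, E2F3 and RBL1 lie within 53 bases before the start.

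Of the 10 members 7 were DEGs. E2F1, E2F2, E2F7, E2F8 and RBL1 fell in shSTIL cells, E2F4 and E2F5 rose, and E2F3, E2F6 and RB1 did not pass the test. This is 70% of the members, beside 47.1% of all genes, and 5 of 10 lower beside 23.6%. The groups did not overlap for the same 7 members (70%, beside 60.3% of all genes). The median log2 fold change of the members was -0.23 and that of all genes 0.01. The members had 131 reads or more in every library and a mean log2 CPM of 3.56 or more. All genes, in contrast, include many near 0 reads, where a change is hard to call. A fit that left out low genes, with a mean under 1, still gave 7448 DEGs, beside 7509. It held only 11319 genes, beside 15953, so a larger share of them was called. The 70% of the members lies nearer to that share than to 47.1%. The shares of all genes may thus be too low a bar for the members. A share among genes of like level was not computed, so an excess of change in the family was not shown. Exons of E2F5, E2F8 and RBL1 overlap those of genes on the opposite strand that have no row in the tables, and since a strand setting is not given in the sources used here, reads of the 2 strands cannot be told apart there. Pseudogenes are annotated by name for E2F3, E2F4 and E2F6, and RSEM can share reads with them. The estimated reads of E2F3, E2F4 and E2F6 were whole numbers in all 6 libraries (tolerance 0.02 reads), so no sign of such sharing was seen. The study's methods do not say whether the mapping reference held the pseudogenes. If it did not, their reads could count for these genes and still be whole, so whole numbers do not settle this. In bulk RNA a smaller share of cells in the cell cycle phase where a gene is expressed cannot be told apart from less RNA per cell.

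**Figure D2:**
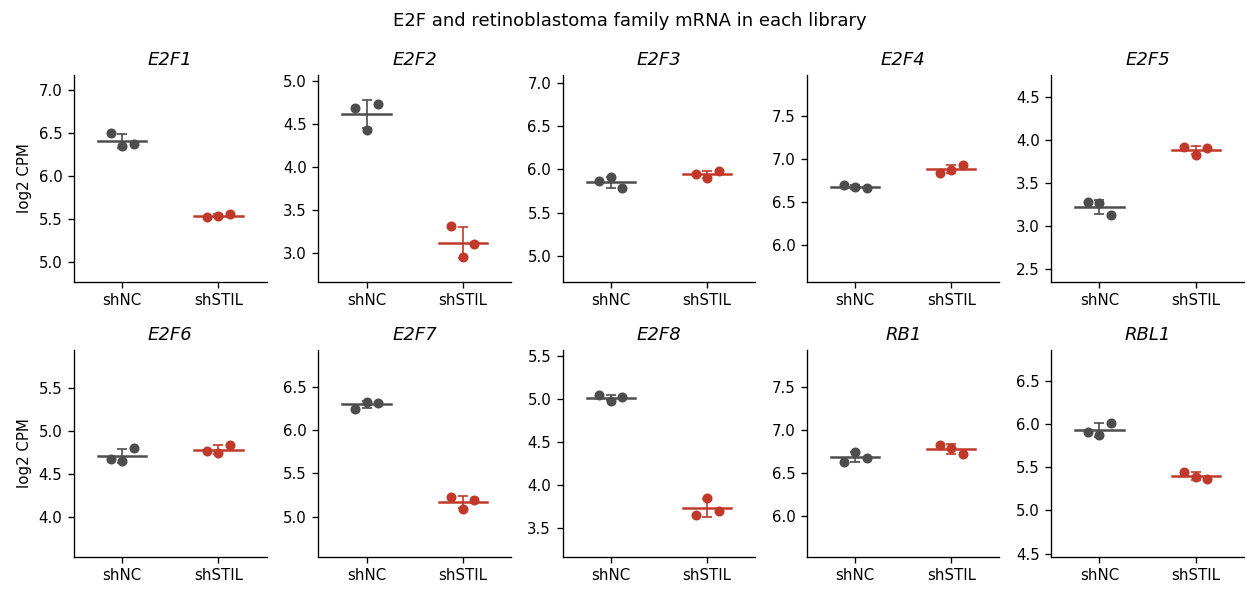
Log2 CPM of each member in the 3 shNC (grey) and 3 shSTIL (red) libraries, with the mean (line) and SD (bar), and an axis of the same span for every gene. E2F1, E2F2, E2F7, E2F8 and RBL1 are lower and E2F4 and E2F5 higher in shSTIL cells without overlap, while the groups overlap for E2F3, E2F6 and RB1.

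The activators did not move together. E2F1, the founding member of the family, lies on chromosome 20 of GRCh38 from 33675683 to 33686404. E2F1 had a log2 CPM of 6.50, 6.35 and 6.37 in shNC cells and 5.53, 5.54 and 5.56 in shSTIL cells. All 3 shSTIL libraries were lower than all shNC libraries, and 54.9% of the control level was left (log2 fold change -0.87, SE 0.05, limma adjusted p = 3.1e-09). E2F2, a close relative of E2F1 that activates the same kind of gene, lies on chromosome 1 from 23506430 to 23531220. E2F2 was at 4.68, 4.43 and 4.73 in shNC cells and at 3.31, 2.95 and 3.11 in shSTIL cells, from 349 to 419 reads down to 131 to 168. Replicate 2 was the lowest library of each group, and the groups lay far apart. E2F2 fell to 35.7% of the control level, the largest change of any member (log2 fold change -1.48, SE 0.11, adjusted p = 5.9e-08 by limma), and 144 of the 15953 genes fell further. E2F3, whose amplification is known in bladder cancer, lies on chromosome 6 from 20401906 to 20493715. E2F3 was at 5.86, 5.91 and 5.78 in shNC cells and at 5.95, 5.90 and 5.98 in shSTIL cells, and the groups overlapped. The E2F3 level was 1.07 times the control level with a 95% interval of 0.999 to 1.14 (log2 fold change 0.10, limma adjusted p = 0.09). Values are per gene, so transcripts from the first and the second RefSeq start of E2F3 cannot be told apart. Within each library, the log2 CPM of E2F3 minus that of E2F1 was -0.65, -0.44 and -0.59 in shNC cells and 0.43, 0.36 and 0.42 in shSTIL cells, values that are not corrected for transcript length and so compare the changes, not the levels, of the genes. The same difference for E2F2 minus E2F1 was -1.82, -1.92 and -1.65 in shNC cells and -2.21, -2.59 and -2.45 in shSTIL cells. Neither difference overlapped between the groups, and the exact two-sided permutation test gave p = 0.1 for each, the smallest p that 3 libraries against 3 allow.

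The repressors that work with pocket proteins rose. E2F4, the most abundant E2F, lies on chromosome 16 from 67192169 to 67198918. E2F4 was at 6.70, 6.67 and 6.66 in shNC cells and at 6.84, 6.87 and 6.93 in shSTIL cells. The change was small and well above the spread, at 1.15 times the control level (95% interval 1.09 to 1.22, log2 fold change 0.20, SE 0.04, limma adjusted p = 0.00025). E2F5, which binds mainly p130, was at 3.28, 3.27 and 3.13 in shNC cells and at 3.92, 3.83 and 3.91 in shSTIL cells, from 137 to 156 reads up to 242 to 257. E2F5 rose 1.58 times (95% interval 1.39 to 1.80, log2 fold change 0.66, SE 0.09, limma adjusted p = 2.1e-05), the largest rise of a member, and every shSTIL library was above every shNC library. Within each library, the log2 CPM of E2F5 minus that of E2F4 was -3.45 ± 0.07 in shNC cells and -2.99 ± 0.07 in shSTIL cells (SD, n = 3), without overlap (exact permutation p = 0.1). The estimated reads of E2F5 were not whole numbers in any library (tolerance 0.02 reads), so part of them was shared with other transcripts. Reads of RBL1 were whole in 3 of 6 libraries and those of the other 8 members in all 6.

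E2F6, which lacks the region that binds pocket proteins and works with a Polycomb complex, was at 4.67, 4.65 and 4.80 in shNC cells and at 4.77, 4.74 and 4.84 in shSTIL cells. The groups overlapped, and the level was 1.06 times that of the control with a 95% interval of 0.965 to 1.16 (log2 fold change 0.08, limma adjusted p = 0.29). The gene lies on chromosome 2 from 11444375 to 11466177. The other subunits of its complex did not share 1 direction. Of 11 genes listed, 5 rose, 3 fell and 3 did not pass the test, while 47.1% of all genes were DEGs. YAF2 rose by 0.68, RYBP by 0.46 and MGA by 0.38 on the log2 scale (limma adjusted p of 1.3e-07, 3.6e-06 and 5.8e-05). YAF2 and RYBP are related proteins that tie DNA-binding factors to the Polycomb RING proteins, and MGA is a scaffold of the complex that pairs with MAX. EHMT2, a histone H3 lysine methyltransferase, fell to 60.7% of the control level, CBX3, a heterochromatin protein, to 78.1% and L3MBTL2 to 84.0% (limma adjusted p of 2.7e-08, 5.8e-07 and 0.001). The MGA call was lost in 4 of 14 alternatives and that of L3MBTL2 in 2. The median log2 fold change of the list was 0.17, beside 0.01 for all genes.

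The atypical E2Fs fell together. E2F7, which lies on chromosome 12 from 77021247 to 77065580, was at 6.25, 6.33 and 6.32 in shNC cells and at 5.23, 5.09 and 5.19 in shSTIL cells. E2F7 fell to 45.8% of the control level (log2 fold change -1.13, SE 0.05, limma adjusted p = 4.4e-10), and 373 genes fell further. E2F8, on chromosome 11 from 19224063 to 19241620, was at 5.04, 4.98 and 5.02 in shNC cells and at 3.65, 3.85 and 3.70 in shSTIL cells. E2F8 fell to 41.1% of the control level (log2 fold change -1.28, SE 0.07, limma adjusted p = 4.2e-09), and 236 genes fell further. Both genes code for repressors of E2F target genes and are themselves known targets of E2F1. Within each library, the log2 CPM of E2F8 minus that of E2F7 ran from -1.35 to -1.21 in shNC cells and from -1.59 to -1.24 in shSTIL cells. These values overlapped (exact permutation p = 0.3), so no difference between the falls of E2F7 and E2F8 was detectable with 3 libraries a group. The log2 CPM of E2F1 minus that of E2F7 was 0.26, 0.02 and 0.06 in shNC cells and 0.29, 0.45 and 0.37 in shSTIL cells. E2F1 thus kept more of its control level than E2F7 (difference 0.26, exact permutation p = 0.1). The activator E2F2 fell to 35.7% of the control level, with a 95% interval of the ratio of 0.305 to 0.419. This interval overlapped that of E2F8 (0.37 to 0.457) and lay below that of E2F7 (0.426 to 0.492). E2F2 was not compared with E2F7 or E2F8 within libraries.

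**Figure D3:**
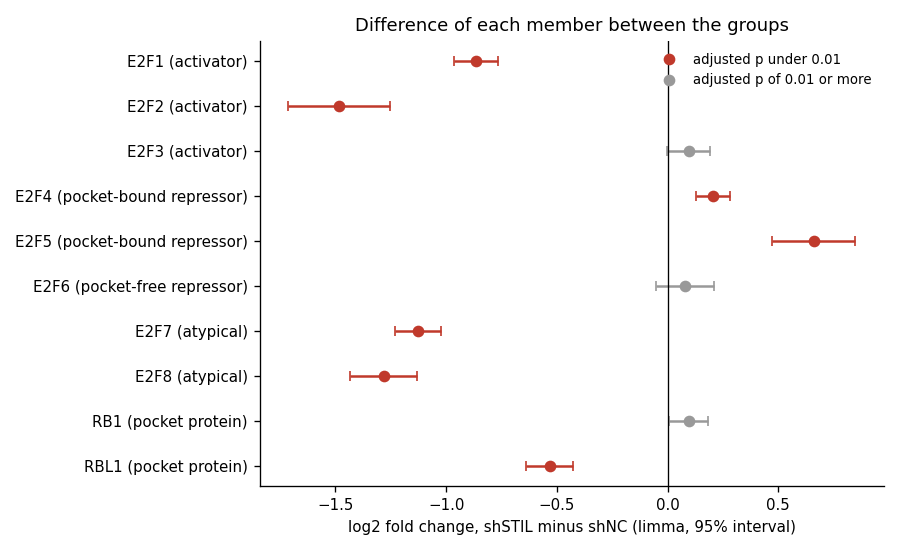
Log2 fold change of each member, shSTIL minus shNC, with its 95% interval from limma, in red for an adjusted p under 0.01 and in grey otherwise. E2F2 falls most at -1.48 and E2F5 rises most at 0.66, while the points of E2F3, E2F6 and RB1 are at 0.10 or less.

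The pocket proteins differed from each other. RB1, which lies on chromosome 13 from 48303726 to 48599436, was at 6.63, 6.75 and 6.68 in shNC cells and at 6.83, 6.79 and 6.72 in shSTIL cells. RB1 mRNA was thus present in all libraries, with 1589 to 1938 reads, and the groups overlapped. Its level was 1.07 times that of the control with a 95% interval of 1.01 to 1.14 (log2 fold change 0.10, SE 0.04, limma adjusted p = 0.063). After each library was centred on its median gene, the log2 fold change of RB1 was 0.14 and it passed the test (adjusted p = 0.0096 by limma). RBL1, which codes for p107 and is expressed mainly in proliferating cells, lies on chromosome 20 from 36996349 to 37095995. RBL1 was at 5.91, 5.87 and 6.02 in shNC cells and at 5.45, 5.39 and 5.36 in shSTIL cells, without overlap. RBL1 fell to 69.2% of the control level (95% interval of the ratio 0.642 to 0.745, log2 fold change -0.53, SE 0.05, limma adjusted p = 7.1e-07). Within each library, the log2 CPM of RBL1 minus that of RB1 was -0.72, -0.88 and -0.66 in shNC cells and -1.37, -1.41 and -1.36 in shSTIL cells (exact permutation p = 0.1). RBL2, which codes for p130, the pocket protein of resting cells, had a log2 CPM of 6.96, 7.07 and 6.97 in shNC cells and 7.07, 7.11 and 7.08 in shSTIL cells. The groups barely missed overlapping for RBL2, since its highest shNC and lowest shSTIL libraries were both at 7.07 as rounded here. The log2 fold change of RBL2 was 0.08 (SE 0.04, limma adjusted p = 0.064). RBL2 passed the test after median centring (log2 fold change 0.13, limma adjusted p = 0.0088) and without shNC replicate 2 (log2 fold change 0.12, limma adjusted p = 0.0086).

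With p130 or p107, E2F4 or E2F5 and a DP protein, the MuvB core forms the DREAM complex, which represses cell cycle genes in resting cells. Of the 5 MuvB subunits and DYRK1A, the kinase that promotes the assembly, RBBP4 fell, LIN9 and LIN52 rose, and 3 did not pass the test. RBBP4, a histone-binding protein shared with several other complexes, was at 7.74, 7.76 and 7.76 in shNC cells and at 7.18, 7.15 and 7.13 in shSTIL cells (log2 fold change -0.60, limma adjusted p = 2.2e-09). LIN52, the subunit that DYRK1A phosphorylates, rose by 0.42 and LIN9 by 0.26 on the log2 scale (limma adjusted p of 0.00036 and 0.0063). The LIN9 call was lost in 8 of 14 alternatives and that of LIN52 in 4. Among 7 corepressors that pocket proteins recruit, 4 fell, 2 rose and 1 did not pass the test. The counts of these lists stand beside 47.1% of all genes called, a low bar for well-expressed genes. The deacetylase HDAC1 fell to 65.8% of the control level, the methyltransferase SUV39H1 to 79.5% and the demethylase KDM5A to 85.7% (limma adjusted p of 1e-08, 5.3e-05 and 0.0011). ARID4A, an RB1-binding protein, rose by 0.20 and SIN3B, a scaffold of deacetylase complexes, by 0.15 on the log2 scale (limma adjusted p of 0.0034 and 0.0052). The calls of KDM5A, ARID4A and SIN3B were lost in 6, 6 and 8 of the 14 alternatives.

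The DP partners of the E2Fs went opposite ways. TFDP1, the main partner, was at 6.87, 6.86 and 6.86 in shNC cells and at 6.48, 6.43 and 6.38 in shSTIL cells, and fell to 73.9% of the control level (log2 fold change -0.44, SE 0.04, limma adjusted p = 2.5e-07). TFDP2 was at 5.39, 5.48 and 5.45 in shNC cells and at 5.74, 5.66 and 5.66 in shSTIL cells, and rose by 0.25 on the log2 scale (SE 0.05, limma adjusted p = 0.00038). The log2 CPM of TFDP1 minus that of TFDP2 was 1.49, 1.38 and 1.41 in shNC cells and 0.73, 0.77 and 0.72 in shSTIL cells (exact permutation p = 0.1). TFDP3 had no row in the tables.

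Levels were compared between members as RPKM (the scaled reads divided by transcript length), with the longest coding transcript of GENCODE 29 as the length. In shNC cells the order of mean levels was E2F4 at 48.7 RPKM, E2F1 at 33.9, RB1 at 21.5, E2F7 at 13.7, E2F3 at 12.1, RBL1 at 10.7, E2F8 at 9.14, E2F6 at 7.52, E2F5 at 4.89 and E2F2 at 4.70. Neighbours in this order did not overlap between libraries except E2F5 and E2F2. In shSTIL cells E2F4 led at 56.1 RPKM, followed by RB1 at 22.9, E2F1 at 18.6, E2F3 at 12.9, E2F6 at 7.95, E2F5 at 7.77, RBL1 at 7.41, E2F7 at 6.27, E2F8 at 3.74 and E2F2 at 1.67. Here E2F6 overlapped with E2F5 and E2F5 with RBL1. The order depends on the length. The median coding transcript of each gene was also used, a choice made after the data were seen. With it, E2F7 came to 34.2 RPKM and RB1 to 39.1 RPKM in shNC cells. RB1 was then above E2F1, and E2F7 overlapped with E2F1, while E2F4 stayed first in both groups.

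The activators and the atypical members took a smaller share of the E2F mRNA in shSTIL cells, and E2F4 with E2F5 a larger one. The summed level of the 8 E2F genes was 132.9 to 137.7 RPKM in shNC cells and 113.6 to 118.0 RPKM in shSTIL cells. E2F1, E2F2 and E2F3 made up 37.1% to 38.7% of it in shNC cells and 28.6% to 29.3% in shSTIL cells. E2F4 and E2F5 made up 39.5% to 40.2% and then 54.9% to 55.9%. E2F6 accounted for 5.33% to 6.003% and then 6.79% to 7.01%, and E2F7 with E2F8 for 16.4% to 17.3% and then 8.48% to 8.86%. None of these ranges overlapped between the groups. Since the sum fell, a share can rise without a rise of its own genes. The share of E2F6 rose, although E2F6 itself did not pass the test. How much of the larger share of E2F4 and E2F5 came from their own rise was not computed. With median transcript lengths the shares were 26.6% to 27.98% against 20.4% to 20.9% for the activators, 45.4% to 46.0% against 61.8% to 62.9% for E2F4 and E2F5, and 22.1% to 23.4% against 11.6% to 12.2% for E2F7 and E2F8, so the direction was the same. These are shares of mRNA and say nothing of protein.

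**Figure D4:**
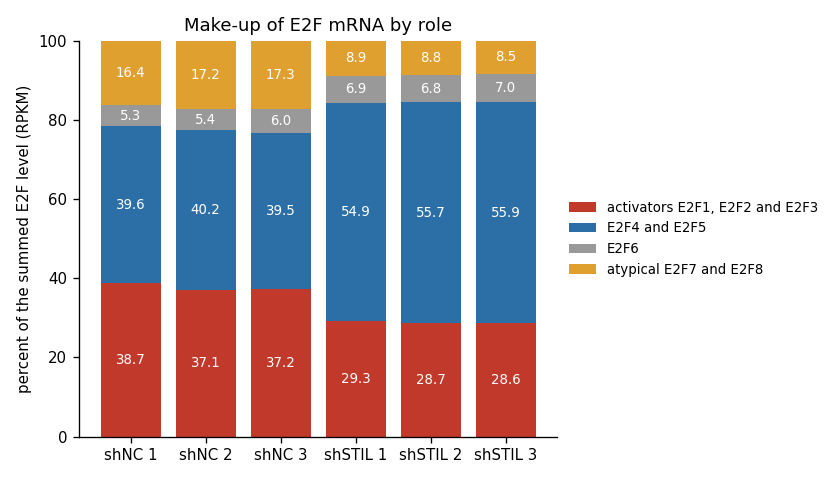
Share of the summed level of the 8 E2F genes (RPKM, longest coding transcript) taken by each role, in percent, for each library. E2F4 and E2F5 take 39.5% to 40.2% in the shNC libraries and 54.9% to 55.9% in the shSTIL libraries.

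Upstream of the pocket proteins, the G1 cyclins and their kinases did not share 1 direction. Of 9 genes listed, 5 fell, 2 rose and 2 did not pass the test, with a median log2 fold change of -0.21. CCNE2, a cyclin E gene, was at 3.44, 3.52 and 3.38 in shNC cells and at 0.58, 0.67 and 0.67 in shSTIL cells, where 14.3% of the control level was left (log2 fold change -2.80, SE 0.14, limma adjusted p = 1.7e-09). CCNE1, the other cyclin E gene, fell to 46.9% of the control level, and CCNA2, cyclin A, to 52.8% (limma adjusted p of 2.4e-08 and 2.1e-10). CDK6, a kinase of the D-type cyclins, was at 7.31, 7.42 and 7.43 in shNC cells and at 8.44, 8.36 and 8.37 in shSTIL cells, a rise of 2.01 times (limma adjusted p = 1.5e-10). CCND1, cyclin D1, rose 1.22 times (limma adjusted p = 2e-06). The D-type genes went both ways, since CDK4, the other kinase of the D-type cyclins, fell to 86.2% of the control level (limma adjusted p = 6.8e-05), and CCND3, cyclin D3, had a log2 fold change of -0.18 that did not pass the test (limma adjusted p = 0.023). CDK4 and CCND3 were named after their values were seen. Among 7 inhibitors of these kinases, 3 rose, 2 fell and 2 did not pass the test. The counts of the lists in this paragraph stand beside 47.1% of all genes called, a low bar for well-expressed genes. CDKN2B, which codes for p15, rose 1.95 times, CDKN1B, for p27, 1.23 times and CDKN1A, for p21, 1.16 times (limma adjusted p of 9.7e-06, 3.5e-05 and 3.7e-05). CDKN2C, which codes for p18 and is a known E2F target, fell to 44.8% of the control level and CDKN2D, for p19, to 68.8% (limma adjusted p of 2.2e-09 and 0.00014). Of 3 genes of ubiquitin ligases that act on E2F proteins or on other cell cycle regulators, CCNF fell to 53.2%, SKP2 to 77.6% and FZR1 to 79.5% of the control level (limma adjusted p of 1.8e-09, 0.00012 and 3.8e-05), and the FZR1 call was lost in 3 of 14 alternatives.

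Downstream, all 32 genes of a list of well-known E2F targets in DNA replication, nucleotide synthesis and the cell cycle fell in shSTIL cells, beside 23.6% of all genes. Their log2 fold changes ran from -2.80 to -0.17 with a median of -1.09, beside 0.01 for all genes. This list holds CCNE1, CCNE2 and CCNA2 of the paragraph above, and a fall of S phase genes in these libraries was known when it was drawn up, so the count is not independent evidence of its direction. RRM2, the small subunit of ribonucleotide reductase, was at 9.02, 9.05 and 9.06 in shNC cells and at 6.98, 6.90 and 6.97 in shSTIL cells, and 23.4% of the control level was left (limma adjusted p = 1e-13). MCM4, a subunit of the replicative helicase, fell to 27.7% of the control level (limma adjusted p = 1.7e-12). The smallest fall was that of CHEK1, a checkpoint kinase named here after its value was seen, to 88.7% of the control level (limma adjusted p = 0.0063). Of the RefSeq windows of these genes, 20 of 42 held an E2F word (47.6%, beside 4.46% of the windows of genes in the tables), MCM6, named here after its value was seen, with 4 matches the most, and 26 of the 32 genes had a window. The E2F targets known from cell death and described here did not share 1 direction. TP73, a transcription factor that promotes cell death, fell to 48.2% and APAF1, the scaffold of the apoptosome, to 75.7% of the control level, and BBC3, a pro-apoptotic BCL2 family gene, rose 1.35 times (limma adjusted p of 7.9e-08, 7.3e-05 and 2.2e-05). The APAF1 call was lost in 2 of 14 alternatives.

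**Figure D5:**
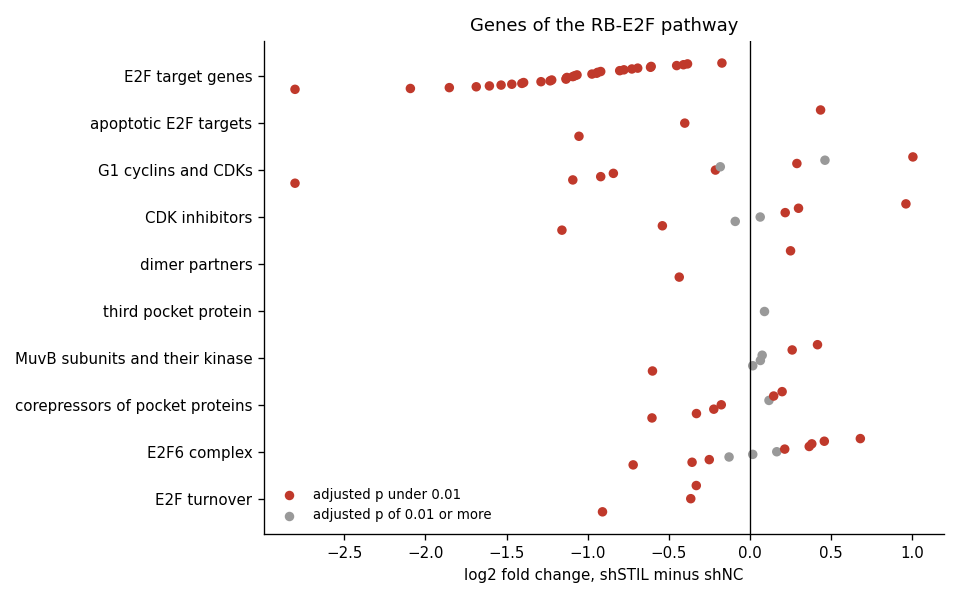
Log2 fold change, shSTIL minus shNC, of each measured gene of 10 lists of the RB-E2F pathway, 1 point a gene, in red for a limma adjusted p under 0.01 and in grey otherwise. All 32 E2F target genes lie below 0, from -2.80 to -0.17, whereas the other lists except E2F turnover and RBL2 alone hold points on both sides of 0.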

How the data were processed

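Total RNA of 6 EJ libraries was sequenced on a BGISEQ-500. The authors used SOAPnuke to filter reads, Bowtie2 to map them to transcripts and RSEM to estimate reads per gene, and the submitters' notes name hg38; versions are not given in the sources used here. The deposited tables hold log2 CPM of 15953 genes for 6 libraries and estimated counts (RSEM) of 15957 genes for 4. RSEM can share reads between alike transcripts. Differences were fitted with limma 3.58.1 (R 4.3.3, mean-variance trend, Benjamini-Hochberg adjustment) on all genes of the deposited log2 CPM tables, since count tables covered 1 shNC library, and single pairs of genes by exact permutation (two-sided, 20 labellings). Log2 CPM carries a prior count of 2, which understates the change of low genes. Reads were recovered from the steps of the log2 CPM: 87.1% to 87.4% of values came out whole (tolerance 0.003 reads), and the largest difference from a deposited count was 0.000494 reads. Rounded, they entered edgeR 4.0.16 (quasi-likelihood test; 7828 genes called) and DESeq2 1.42.0 as alternatives. Libraries of a group differed beyond sampling noise (chi-square of 1.69 to 3.49 per degree of freedom). The fits were also run on simulated data with far fewer changed genes than here, so that run does not give their error rates in these data.

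The members and lists were chosen with earlier results of these data known. Named were all members, STIL, up to 3 called rises and 3 called falls per list (mean log2 CPM of 1 or more), every gene of lists of 3 or fewer, and the 5 genes most correlated with the member of largest change. Gene positions and transcript lengths are those of GENCODE 29 (GRCh38), promoter windows those of RefSeq. Some genes of the list of E2F targets in cell death are not reported here.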

Additional observations from a re-analysis of the deposited data

How the results depend on the processing

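The number of DEGs was 7509, and 5855 without the mean-variance trend, 7337 after quantile normalization, 7614 after median centring, 7128 with a prior count of 0.5, 6742 with DESeq2, 7448 among genes with a mean log2 CPM of 1 or more and 8988 at an adjusted p under 0.05. A required absolute log2 fold change above 1 left 951 DEGs, 3 members (E2F2, E2F7 and E2F8) and 18 of the 32 E2F target genes. With 1 library left out the DEGs numbered 4900 to 5638, the fewest without shSTIL replicate 3, while 7 members were called each time; fewer libraries enter these fits. Over 14 alternatives 9 of 10 members kept their side of the threshold, and RB1 passed it after median centring. The highest adjusted p of a called member was 0.0098, for E2F4. No log2 fold change of the 49 named genes changed sign. Calls were lost most often for LIN9 and SIN3B, and 31 or 32 of the E2F target genes were called, CHEK1 being the gene lost. The scalings moved the median gene by at most 0.05 on the log2 scale. Libraries with the same number did not deviate together (correlations of -0.12, -0.06 and -0.11), so the numbers do not pair them, and a replicate block gave 6898 DEGs with 7 members called. The fewest reads of a member in a library were 131, for E2F2, and the effect of depth on the members was not tested.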

Other observations

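Of 4 germline genes that E2F6 is known to keep silent, 2 had a row in the tables. STAG3, a meiotic cohesin subunit, had a log2 CPM of 3.45, 3.43 and 3.56 in shNC cells and 3.23, 3.25 and 3.25 in shSTIL cells (log2 fold change -0.24, limma adjusted p = 0.039), which did not pass the test. SMC1B, another meiotic cohesin subunit, had 1 to 4 reads per library. SLC25A31 and MAEL had no row in the tables.

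Over the 6 libraries, the genes whose log2 CPM ran most like that of E2F2 were ERICH1, SALL2, TCF4, PIF1 and B4GALNT1, with Pearson's r of 0.998 to 0.9995 across 11318 genes compared. In all, 2137 genes had an r over 0.95 with E2F2, since any gene that differs between the groups follows the same split of the libraries, and the order among them is a description.

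COL1A1, a fibroblast collagen gene with 21 to 59 reads per library, fell by 0.96 on the log2 scale (limma adjusted p = 0.002), a call that was lost in 6 of 14 alternatives, among them 5 of the 6 fits that left out 1 library. KRT8 fell to 61.5% of the control level and KRT7 rose 1.41 times (limma adjusted p of 1.1e-09 and 2e-06).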
